A study of Mus musculus with 67 samples.

Results

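The genes described here act in homologous recombination, in the Fanconi anaemia pathway and in the cohesion of sister chromatids, together with the damage kinases that control them. A list of 39 such genes was set by name, with earlier results of these data known. All 39 were found among the 39179 gene rows of the table. They were read in cultured vascular smooth muscle cells, which form the contractile layer of arteries, grown from the descending aorta of C57Bl6 mice, adult males of 3 to 4 months. The medium held 10% serum and 1% antibiotic. Passage 1 cells were left for 5 days before trypsin treatment, and replating gave passage 2. Each cell caught on the C1 microfluidic system became 1 library, 22 at passage 1 and 45 at passage 2, and the comparison is between the passages. No animal, culture or genotype other than the strain is named for any cell, so each passage counted as 1 sample. For that reason no p-value or standard error was computed, and every SD is the spread between cells. All passage 1 libraries carry another label prefix than all passage 2 libraries, so passage and library set cannot be told apart.

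Homologous recombination repairs a broken chromosome by copying the sister chromatid. The MRN complex (Mre11a, Rad50, Nbn) senses the break, nucleases trim its ends, and Brca1, Palb2 and Brca2 then help to start the search for the matching sister sequence. The Fanconi core complex attaches ubiquitin to Fancd2 and Fanci at crosslinked DNA, the kinases Atm and Atr signal damage, and cohesin holds the sister chromatids together until mitosis. Many of these genes are known to be transcribed mostly in the S and G2 phases of the cell cycle, and the genes were therefore read both in all cells and without the cells that had Mki67, a marker of proliferation, or Top2a, the topoisomerase of mitotic chromosomes, at a normalized count of 10 or more. Such marked cells numbered 16 of 22 at passage 1 and 10 of 45 at passage 2.

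Promoters are shown first, because E2F factors drive many S phase genes and the letters TTCCCGC are a common E2F motif. RefSeq promoters (GRCm38.p6) were given for 28 of the 39 members. On either strand of the 250 bases before the start, TTCCCGC or TTGGCGC was found in 7 of the 28 (25%), against 5.71% of 27025 promoters and 7.27% of 17492 promoters of protein-coding genes. All 7 had TTCCCGC, and none had TTGGCGC. In 5 of the 28 (Rad51c, Fancc, Fanci, Fancl and Chek1) the RefSeq start lies downstream of the GENCODE gene start, so that the window falls wholly inside the GENCODE gene. None of these 5 had the motif. The stretches around the motif in 6 of them are printed along the strand of the gene, with the motif, or its reverse complement, in capitals.
Brca2, chr5:150522442-150522470, plus strand: tttaggccacaGCGGGAAacagacacaca
Bard1, chr1:71103163-71103191, minus strand: cgccgctcagtTTCCCGCtcaggaagttt
Fancb, chrX:164980409-164980437, plus strand: ccggggtagagGCGGGAAtaagtgctctg
Fancm, chr12:65075538-65075566, plus strand: aaccaatcatcTTCCCGCcgcaaaatcgg
Fignl1, chr11:11809062-11809090, minus strand: ggaaacccaaaTTCCCGCgttaaggcctg
Chek2, chr5:110839820-110839848, plus strand: cgggattagccGCGGGAAaccaagacgtc
In these 6 the motif lay between 54 bases before the RefSeq start (Fancm) and 208 bases before it (Bard1). For Bard1 only the first 76 bases of the window lie before the GENCODE gene start. Fancg was the seventh gene with the motif, which is not printed because it reaches past the GENCODE gene start. The letters TTTGAA, a core of the CHR element of late cell-cycle genes, stood in 1 of the 28 promoters (3.57%) against 16.3% of all promoters. The letters CCAAT stood in 16 of the 28 (57.1%) against 34.5%. The members' promoters had a median GC content of 58.6% against 52% of all promoters, and whether that bears on the shares was not tested. Each match describes letters in a window, not a bound site.

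The libraries held 817021 to 1561129 reads at passage 1 and 548419 to 1509589 at passage 2. A median of 8477.5 and 7257 genes per cell had a read. At least 3 of 10 smooth muscle markers were at 10 in 19 of 22 passage 1 cells and in 45 of 45 passage 2 cells, and Des was at 0 in all passage 1 cells. The summed level of that list had a median of 1509 (173 to 8020) at passage 1 and of 7470 (1371 to 29019) at passage 2. At least 3 of 10 endothelial markers were at 10 in 5 and 2 cells, whose summed endothelial level reached 5216 and 7076. At least 3 of 8 fibroblast markers were at 10 in 13 and 17 cells, and Ptprc and Adgre1 of the macrophage list were at 0 in all cells. In 3 cells fewer than 5000 genes had a read (passage 1 cell 21, passage 2 cells 13 and 15).

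In all cells, 36 of the 39 members had a lower mean normalized count at passage 2, and 28 (71.8%) were lower by at least 2-fold. The share of all 20000 genes with a read that were lower by at least 2-fold was 14%. Because the members were chosen with earlier results of these data known, this contrast is a description only. No member was higher by at least 2-fold, against 12.6% of all genes. Over the 8682 genes that passed a filter on low values the shares were 19.4% lower and 14.4% higher. The difference is given throughout on the log2 scale, as passage 2 less passage 1 of log2(mean + 1), and the 1 added to each mean understates the difference of low genes. Its median over the 39 members was -1.50, a 2.82-fold lower level, against 0.0046 over all genes with a read. Of the 28, 22 stayed lower by at least 2-fold whichever single cell was left out, and 26 members were lower by that much without the 7 endothelial marker cells. With medians over cells in place of means 20 members were lower by at least 2-fold, against 39.8% of the genes that passed the filter. Levels low enough to fail the filter (a mean of 10 in a passage and a read in 25% of its cells) were found for 8 members: Bard1, Palb2, Rad51b, Rad51c, Rad51d, Xrcc2, Fancd2 and Fancg.

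**Figure D1:**
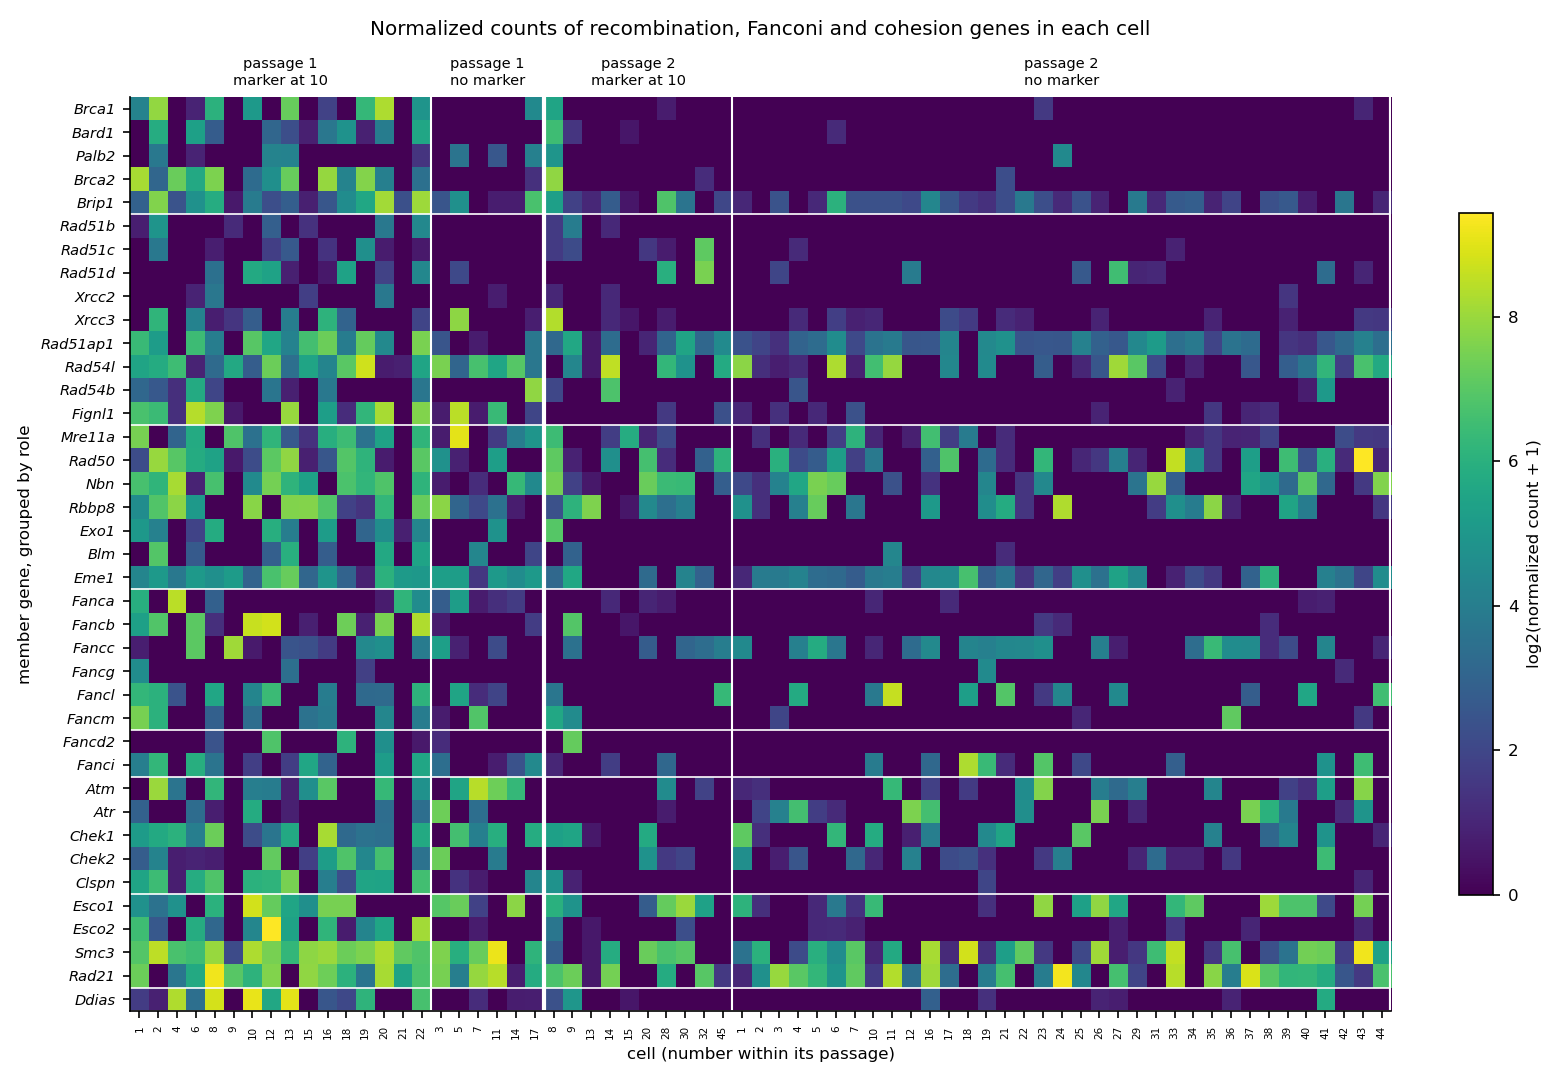
Normalized count of each member (rows, by role) in each cell (columns, numbered within a passage), on a log2(count + 1) color scale. Cells are split by passage and by Mki67 or Top2a at 10. Up to 31 members are at 10 in the marked passage 1 cells, and at passage 2 many rows, such as Brca2, Exo1 and Fancd2, are at or near 0 outside cells 8 and 9.

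The shares of cells gave the same direction for most members. The share of cells with a count of 10 or more was lower at passage 2 for 37 members and higher for 2, Fancc and Atr. Over the 8682 genes that passed the filter, 73.7% had a lower share at passage 2, so the direction alone is common in these libraries. For 11 members the exact 95% intervals of the passages did not meet, in each case with the lower share at passage 2. Among all 20000 genes with a read the intervals were apart with the lower share at passage 2 for 3.79%, and with the higher one for 0.385%. Among the 8682 genes that passed the filter the share was lower, with intervals apart, for 8.68%. These intervals cover counting error over cells only. The median over cells was 0 for 27 members at passage 2 and for 11 at passage 1. The matching share of all genes was not computed, and passage 2 cells had fewer reads (a median of 885194 against 1227270).

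**Figure D2:**
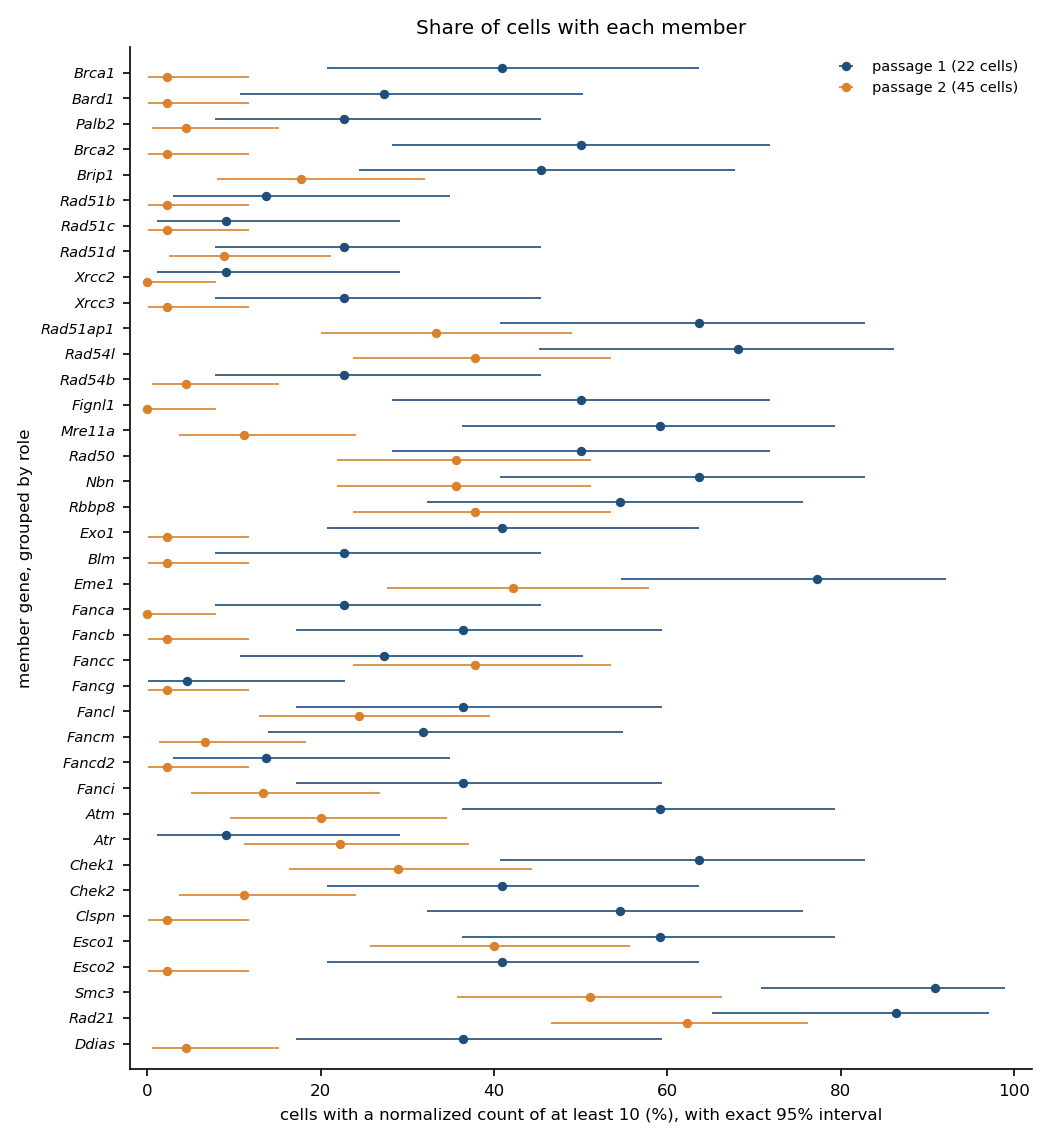
Share of cells (%) with a normalized count of at least 10 for each member, by role, in 22 passage 1 and 45 passage 2 cells. Bars are exact 95% binomial intervals, and the share at passage 2 is the lower one for 37 of 39 members, with Fancc and Atr the other way round.

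Cells of passage 1 held 4 to 31 of the 39 members at 10 or more, with a median of 16. Cells of passage 2 held 1 to 17, with a median of 6. The ranges overlapped, but the upper quartile at passage 2 (8) lay below the lower quartile at passage 1 (10.25). As a share of all genes at 10 in the same cell, the members made up a median of 0.322% at passage 1 and 0.139% at passage 2. Scaled to the total reads of each cell, the summed reads of the members had a median of 1738 RPM at passage 1 and 600 RPM at passage 2. The fullest cell was passage 1 cell 22, with 31 members and 10733 genes, and the emptiest were passage 1 cell 21 with 4 members and passage 2 cells 13 and 15 with 1 each, the 3 cells with fewest genes. Without those 3 cells the medians lay 11 members apart, against 10 with them.

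Marked cells had the higher median count of members at passage 1 but not at passage 2, where the order depended on cells with few genes. This contrast was not tested. At passage 1 the 16 marked cells had a median of 19 members at 10 (4 to 31) and the 6 unmarked cells 10.5 (6 to 14). At passage 2 the 10 marked cells had a median of 5.5 (1 to 17) and the 35 unmarked cells 6 (2 to 12). Passage 2 cells 13 and 15, with fewer than 5000 genes and 1 member each, were among the marked cells. Without them the marked passage 2 cells did not have the lower median. Passage 1 cell 21, with 4 members and fewer than 5000 genes, was marked as well. The marks themselves were weaker at passage 2. Mki67 had a mean of 243 ± 308 (SD, n = 22 cells) and 29 ± 94.4 (n = 45), a log2 difference of -3.02, and Top2a 325 ± 468 and 12.3 ± 63.1, a difference of -4.61. Only passage 2 cell 14 had Top2a above 100 at that passage (424), and that cell held 5 members.

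**Figure D3:**
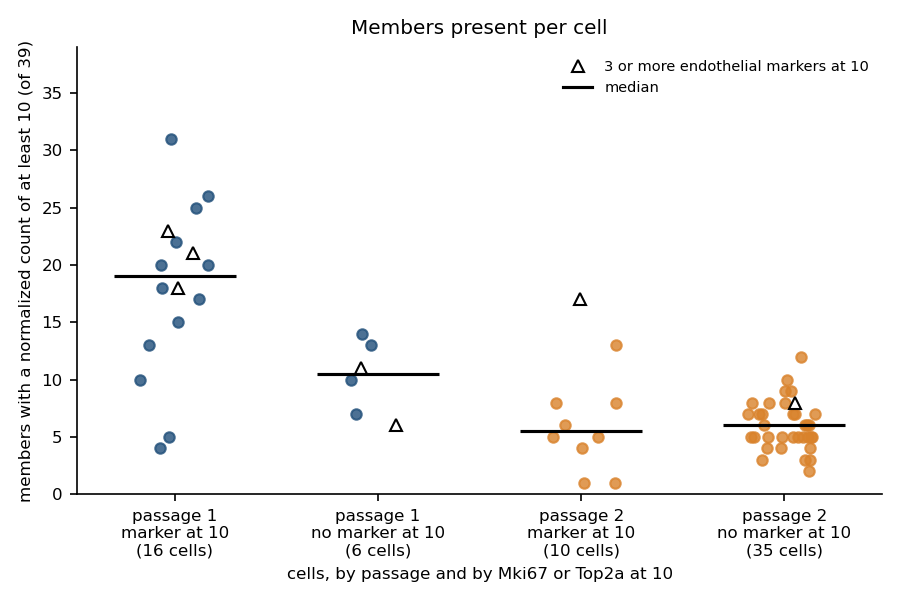
Number of the 39 members with a normalized count of at least 10 in each cell, by passage and by Mki67 or Top2a at 10. Each point is a cell, triangles are cells with at least 3 endothelial markers at 10, and bars are medians (19, 10.5, 5.5 and 6). The marked passage 1 cells reach 31, and the highest passage 2 cell, at 17, is an endothelial marker cell. The lowest marked cells, passage 1 cell 21 and passage 2 cells 13 and 15, had fewer than 5000 genes with a read.

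The breast cancer genes and their partners were all lower by at least 2-fold, 5 of 5. Brca1 (chr11:101488764-101551955, minus strand), a ubiquitin ligase that steers breaks into recombination, ranged from 0 to 311 at passage 1 with a median of 0.455, and from 0 to 45 at passage 2 with a median of 0. Its mean was 43.2 ± 84.4 and 1.08 ± 6.71, a log2 difference of -4.41. Brca1 was at 10 in 9 passage 1 cells and in a single passage 2 cell, and the ranges overlapped through that cell and the many zeros. Brca2 (chr5:150522630-150570329, plus strand), which acts on the trimmed single-stranded ends, ranged from 0 to 297 at passage 1 (median 9.50) and from 0 to 235 at passage 2 (median 0). Its means were 62.7 ± 95.2 and 5.34 ± 35.1, a difference of -3.33. Every one of the 11 passage 1 cells with Brca2 at 10 was a marked cell, where marked cells made up 16 of the 22.

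Bard1, the partner of Brca1, was at 10 in 6 passage 1 cells and 1 passage 2 cell, with means of 9.86 and 2.06. Palb2, the bridge between Brca1 and Brca2, was low in both passages, with means of 3.77 and 1.12. Brip1, a helicase bound to Brca1, was spread over more cells, with any read in 21 of 22 and 37 of 45. Its means were 49.2 ± 86 and 8.23 ± 19.5, a difference of -2.44. Leaving out passage 1 cell 12, 13 or 17 took Palb2 from -1.17 to between -0.98 and -0.95, inside the 2-fold limit.

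The passage 2 level of several of these genes rested on passage 2 cell 8. This cell had 9 of 10 endothelial markers at 10, Mki67 at 155, Top2a at 17 and 17 members at 10. It alone gave 92.7% of the passage 2 sum of Brca1, 97.9% of Brca2, 96.3% of Bard1, 93.7% of Xrcc3, 85% of Clspn and 100% of Exo1. Without it the log2 difference was -5.35 for Brca1, -5.84 for Brca2, -3.33 for Bard1, -3.73 for Xrcc3, -5.14 for Clspn and -3.85 for Exo1. Passage 2 cell 9, with Mki67 at 556, gave 96% of the passage 2 sum of Fancb, 100% of that of Fancd2 and 82.4% of that of Rad51b. Outside these cells Brca2 was seen in 2 passage 2 cells, and Exo1 and Fancd2 in none. Without all 7 endothelial marker cells the differences were -5.69 for Brca2, -3.52 for Bard1 and -3.77 for Xrcc3.

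Among the genes of strand pairing and exchange, 6 of 9 members were lower by at least 2-fold. Fignl1 (chr11:11787431-11808962, minus strand), an ATPase of recombination repair, had the lowest ratio of all 39 members. It ranged from 0 to 349 at passage 1 (median 20.7) and from 0 to 4.06 at passage 2 (median 0). No single cell carried this level, since the highest cell gave 17.3% of the passage 1 sum. Means were 91.8 ± 121 and 0.417 ± 0.954, a difference of -6.03. No passage 2 cell reached 10 (0 of 45, an exact 95% upper limit of 7.87%), against 11 of 22 at passage 1, and the groups overlapped only at values up to 4.06.

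Rad51ap1, which stimulates strand invasion, separated level from presence. It ranged from 0 to 185 at passage 1 (median 16.3) and from 0 to 50 at passage 2 (median 7.94). Any read was found in 16 of 22 and 42 of 45 cells, so it was seen in more passage 2 cells at a lower mean, 48.0 ± 60.1 against 10.8 ± 11.1, a difference of -2.06. Rad54l, a DNA motor protein of recombination, was at 10 in 15 of 22 and 17 of 45 cells. Its means of 71.4 ± 97.2 and 47.5 ± 91.8 differed by -0.58 on the log2 scale, within the 2-fold limit, while its median went from 44.9 to 2.38. The reading of Rad54l is uncertain because 15.4% of its exon bases are shared with Lrrc41 on the other strand, and whether the counts used the strand is not given in the sources used here.

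Several genes of this group were scarce. Rad51b, Rad51c, Rad51d and Xrcc2 had means between 1.31 and 7.84 at passage 1, and were at 10 in 2 to 5 of 22 cells. Rad51c and Rad51d were among the 3 members with a higher mean at passage 2 (0.40 and 0.07), and passage 2 cell 32 held 135 of Rad51c and 185 of Rad51d. Without that cell the differences were -1.38 and -0.76. Xrcc3 had means of 18.9 ± 50.4 and 7.78 ± 48.9 (-1.18), with 226 in passage 1 cell 5, 328 in passage 2 cell 8 and a value of 10 in 4 other cells, all at passage 1. Leaving out passage 1 cell 5 or 2 took it to -0.19 or -0.99. Rad54b, a relative of Rad54l whose exons overlap Fsbp on the same strand over 35.9% of their length, went from -1.89 to -0.48 without passage 1 cell 17, and to -3.06 without passage 2 cell 14. Xrcc2, with 41 reads at passage 1 and 4 at passage 2, had -1.09, and -0.72 or -0.71 without passage 1 cell 8 or 20.

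The break-sensing MRN subunits were compared by means and by medians. Mre11a, the nuclease, ranged from 0 to 528 at passage 1 (median 12.8) and from 0 to 93.7 at passage 2 (median 0.797). With means of 58.6 ± 115 and 7.82 ± 22.3 it differed by -2.76, or by -2.08 without passage 1 cell 5, and it was at 10 in 13 of 22 and 5 of 45 cells. Rad50, the clasp of the complex, had medians of 15.7 and 2.44 and means of 56.3 ± 76.9 and 43.9 ± 117 (-0.35), and was at 10 in 11 and 16 cells. Nbn, which recruits Atm, had medians of 54.6 and 2.59 and means of 61.3 ± 72.6 and 36.6 ± 65.9 (-0.73), and was at 10 in 14 and 16 cells. By means Mre11a alone was lower by at least 2-fold. By medians over cells all 3 were, with -2.94 for Mre11a, -2.28 for Rad50 and -3.95 for Nbn, and the differences between subunits were not tested.

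The role group of break sensing, resection and resolution had 7 genes, of which 5 were lower by at least 2-fold. Apart from the MRN subunits, all 4 resection and resolution genes were. Rbbp8 (CtIP), which starts resection with the MRN complex, had means of 73.1 ± 89.3 and 28.5 ± 65.8 (-1.33). Exo1, the exonuclease that extends resection, was at 10 in 9 passage 1 cells (0 to 59.6, median 1.76), and at passage 2 had reads in cell 8 only. Blm, the helicase that dissolves recombination intermediates, was at 10 in 5 and 1 cells, with means of 14.3 ± 29.8 and 0.608 ± 3.02 (-3.25). Eme1, the partner of the Mus81 nuclease, was the member of this group seen in most cells, at 10 in 17 of 22 (77.3%, exact 95% interval 54.6 to 92.2) and 19 of 45 (42.2%, 27.7 to 57.8). Its means were 34.8 ± 34.6 and 13.2 ± 19.4 (-1.33), and its passage 1 value was the higher one in 78.3% of all pairs of a passage 1 and a passage 2 cell. Without the endothelial marker cells its difference was -0.86, inside the 2-fold limit, which leaves 3 of the 4. Exons of Lrrc59 and Mrpl27 overlap 10.7% of its length on the other strand.

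Of the 6 Fanconi core genes, 4 were lower by at least 2-fold. Fancb (chrX:164980592-164997272, plus strand), part of the catalytic module of the core complex, ranged from 0 to 444 at passage 1 (median 0.801) and from 0 to 118 at passage 2 (median 0). Its means were 81.6 ± 138 and 2.74 ± 17.6, a difference of -4.47, or -6.22 without passage 2 cell 9. All 8 passage 1 cells with Fancb at 10 were marked cells, where marked cells made up 16 of the 22. For Fancb, 14 passage 1 cells lay below 10 together with 44 of the passage 2 cells. Fanca, a scaffold of the core complex, was at 10 in 5 passage 1 cells and in no passage 2 cell, and its highest passage 2 value was 1.16. The means of 25.4 ± 75.2 and 0.143 ± 0.344 differed by -4.53, and by -3.25 without passage 1 cell 4, which held 350. Zfp276 overlaps 10.5% of the exon bases of Fanca on the other strand.

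The other core genes were less uniform. Fancm, the translocase that brings the complex to DNA, had means of 19.9 and 4.78 (-1.85), which became -1.20 without passage 1 cell 1 and -2.92 without passage 2 cell 36. Fancc had means of 23.6 and 10.3 (-1.12) but was at 10 in 6 of 22 and 17 of 45 cells, so its share was the higher one at passage 2. On the other strand 2010111I01Rik and Gm16133 overlap 18.6% of the exon bases of Fancc. Passage 1 cell 9 held 52.4% of its passage 1 sum, and without it the difference was -0.18; without passage 1 cell 6 it was -0.78. Fancl, the ubiquitin ligase of the complex, had almost equal means of 20.2 ± 29.2 and 19.8 ± 61.9 (-0.03), or -0.78 without passage 2 cell 11, and 13.7% of its exon bases overlap Vrk2. Fancg was at 10 in 1 cell of each passage and was too scarce to compare.

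The ratios of the ubiquitin acceptors depended on single cells and on the summary. Fancd2 was at 10 in 3 passage 1 cells and 1 passage 2 cell, with means of 9.65 ± 27.5 and 3.24 ± 21.7 (-1.33). That value became -3.41 without passage 2 cell 9, and -0.44 or -0.89 without passage 1 cell 12 or 18. Without the endothelial marker cells it was -0.65. Fanci had medians of 3.29 and 0 and means of 15.4 ± 22.5 and 14.9 ± 50.9 (-0.04), or -0.82 without passage 2 cell 18, which held 306. Its share of cells at 10 was 8 of 22 against 6 of 45. By medians over cells Fancd2 was at 0 in both passages and Fanci had a difference of -2.10, so the order by means was not kept, and it was not tested. Polg overlaps 16% of the exon bases of Fanci on the other strand.

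Checkpoint genes were lower by at least 2-fold in 4 of 5 cases. Clspn, the adaptor through which Atr activates Chek1, ranged from 0 to 180 at passage 1 (median 16.9) and from 0 to 27 at passage 2 (median 0). It was at 10 in 12 of 22 cells (54.5%, exact 95% interval 32.2 to 75.6) and 1 of 45 (2.22%, 0.0562 to 11.8), with means of 38.1 ± 48.0 and 0.707 ± 4.04 (-4.52). Of the 12 passage 1 cells, 11 were marked cells, against 16 of all 22 passage 1 cells.

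Chek1, the kinase that delays mitosis, ranged from 0 to 296 and from 0 to 138, with medians of 15.7 and 0. It had means of 45.2 ± 68.1 and 15.4 ± 31.8 (-1.50) and was at 10 in 14 and 13 cells. Chek2, the kinase downstream of Atm, had means of 28.5 ± 50.6 and 4.76 ± 14 (-2.36). Atm, which answers double-strand breaks, was at 10 in 13 of 22 and 9 of 45 cells, with means of 57.1 ± 91.3 and 14.5 ± 44.6 (-1.91). Atr, which answers stalled replication, went the other way by mean and by share, at 10 in 2 of 22 and 10 of 45 cells. Its means were 11.9 ± 35.5 and 20.3 ± 50.5 (0.72). Passage 1 cell 3 held 61.8% of the passage 1 sum, and without it the difference was 1.88. Other summaries did not keep this direction. The difference was 0.07 with means of log2 values, 0 with medians over cells and -0.13 in unmarked cells. Passage 2 was higher in 30% of cell pairs and passage 1 in 31.9%.

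Smc3 and Rad21 were at 10 in more cells of each passage than any other member. Smc3, a ring subunit of cohesin (chr19:53600398-53645833, plus strand), ranged from 0 to 568 at passage 1 (median 154) and from 0 to 596 at passage 2 (median 10.7). It was at 10 in 20 of 22 cells (90.9%, 70.8 to 98.9) and 23 of 45 (51.1%, 35.8 to 66.3), with means of 179 ± 130 and 78.9 ± 131 (-1.17). Rad21, the subunit that closes the ring, ranged from 0 to 595 (median 87.3) and from 0 to 613 (median 28.9), with means of 135 ± 145 and 94.3 ± 135 (-0.51). Both spanned nearly the same range in each passage, and per kb of exon they had the highest levels of all members at passage 1, 32.2 and 31.9.

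The order of the acetyltransferases of Smc3 depended on the summary. Esco1, which acts through the cell cycle, had medians of 25.5 and 1.41 and means of 74.7 ± 110 and 47.6 ± 78.1 (-0.64) and was at 10 in 13 of 22 and 18 of 45 cells. Esco2, which acts during replication, ranged from 0 to 693 at passage 1 (median 2.84) and from 0 to 12 at passage 2 (median 0). Its means were 60.5 ± 154 and 0.531 ± 1.88, a difference of -5.33, or -4.36 without passage 1 cell 12, an endothelial marker cell with 52.0% of the passage 1 sum. It was at 10 in 9 and 1 cells, and all 9 were marked cells. By medians over cells the differences were -3.46 for Esco1 and -1.94 for Esco2, the reverse order, and the difference between them was not tested. Ddias, a suppressor of apoptosis after DNA damage, resembled Esco2 in its values: 0 to 559 (median 1.73) against 0 to 54.0 (median 0), with means of 95.4 ± 184 and 2.20 ± 9.14 (-4.91, or -5.57 without passage 2 cell 41). All 8 of its passage 1 cells at 10 were marked cells, where marked cells made up 16 of the 22.

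The members differed in their spread over passage 2 cells. At one end, 16 members were at 10 in at most 1 passage 2 cell, and in 1 to 12 of the 22 passage 1 cells. They were Brca1, Brca2, Bard1, Rad51b, Rad51c, Xrcc2, Xrcc3, Blm, Exo1, Fanca, Fancb, Fancd2, Fancg, Fignl1, Esco2 and Clspn. At the other end, 11 members were at 10 in at least 25% of passage 2 cells: Rad51ap1, Rad54l, Eme1, Fancc, Esco1, Rbbp8, Rad50, Nbn, Chek1, Smc3 and Rad21. The other 12 members lay between. The shares of all genes within these limits were not computed, so the counts describe the members only. Log2 differences ran from -6.03 to 0.40 in the 16 and from -2.06 to -0.35 in the 11, so they overlapped. Per kb of exon, the highest passage 2 levels were those of Rad21 (22.3), Nbn (14.4), Smc3 (14.2), Esco1 (9.33) and Rad50 (8.16), and at passage 1 Fancb (27.4), Ddias (25.8), Nbn (24.2) and Fignl1 (19) followed Smc3 and Rad21.

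**Figure D4:**
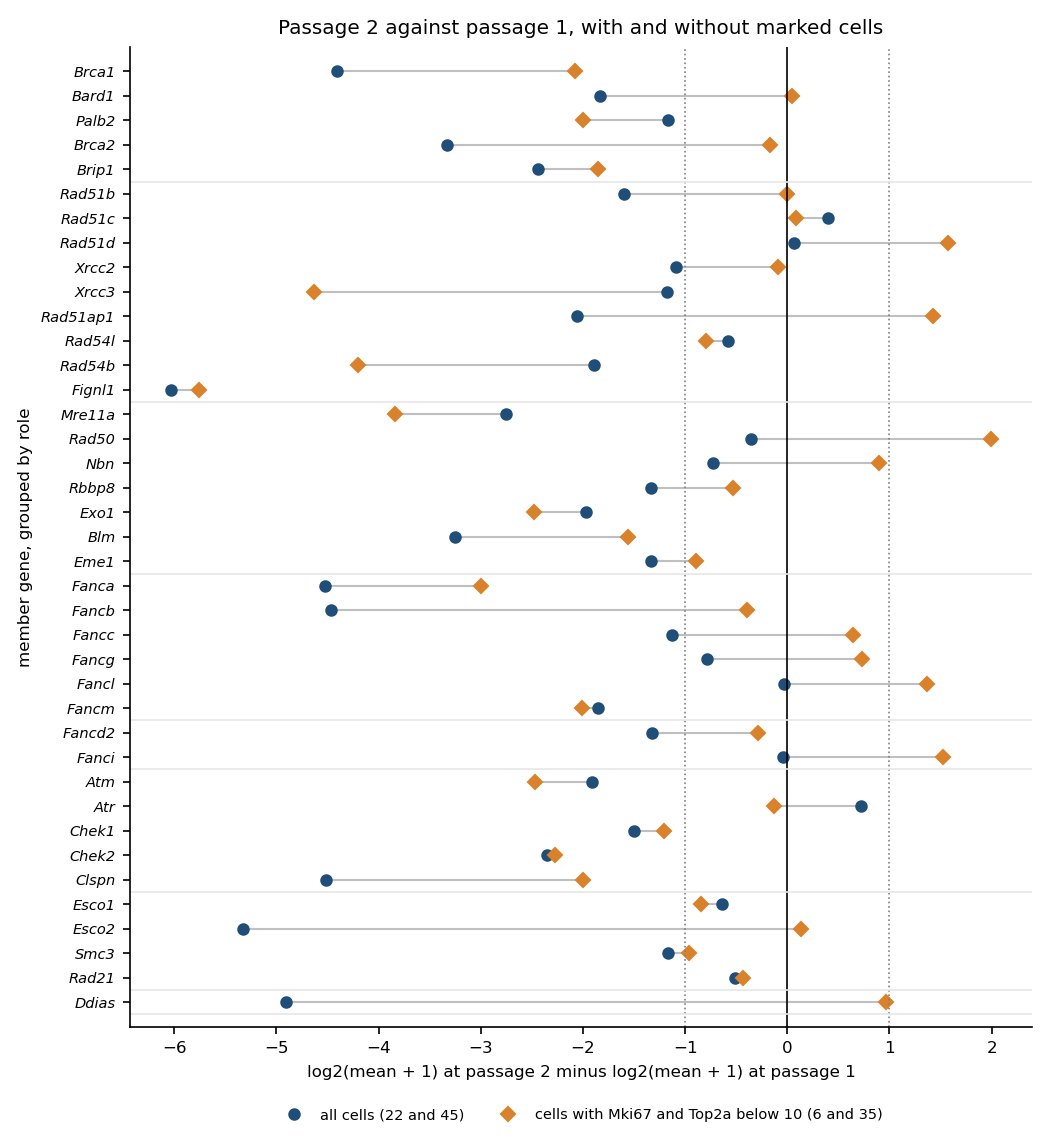
Log2(mean + 1) at passage 2 minus passage 1 for each member, by role, in all cells (circles) and in cells with Mki67 and Top2a below 10 (diamonds). Dotted lines mark 2-fold. In all cells 28 members lie beyond the lower line and none beyond the upper, and without the marked cells 15 and 5 do. The diamonds of Bard1, Rad51b, Rad51c, Exo1, Fancd2 and Fancg compare with a passage at 0 and depend on the 1 added to the means.

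Without the marked cells, 6 passage 1 and 35 passage 2 cells were left. In them 15 members were lower by at least 2-fold at passage 2, against 13.4% of all genes, and 5 were higher by at least 2-fold, against 20.9%. Over the genes that passed the filter these shares were 20.4% and 24.7%. The median over the 39 was -0.53, against 0.06 over all genes. No read was found in 1 of these groups for 6 members. With Bard1, Rad51b, Rad51c and Fancd2, at or under 3 reads in both, left out, and Exo1 and Fancg set against a floor of 3 reads over the group, 35 members had a median of -0.85 and the same counts of 15 and 5. At passage 1, 11 members were at 10 in none of the 6 cells. Of these 6 cells, 2 were endothelial marker cells (cells 11 and 14), as was 1 of the 35.

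Few of these values were independent of a single cell. The 2-fold difference held whichever cell was left out for 4 of the 15 lower members (Palb2, Fanca, Fignl1 and Atm) and 2 of the 5 higher ones (Rad51ap1 and Rad50). Fignl1 was at 349 and 83.5 in passage 1 cells 5 and 11 and under 3 in the other 4. It did not exceed 4.06 in the 35 passage 2 cells, and the difference was -5.76, or -3.76 without passage 1 cell 5. Atm was at 338, 161, 77 and 44.3 in 4 of the 6 passage 1 cells and at 10 in 8 of the 35 passage 2 cells, a difference of -2.47, or -1.61 without passage 1 cell 7.

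Rad51ap1 and Rad50 were lower at passage 2 in all cells but higher among unmarked cells. Rad51ap1 had a median of 0.319 in the 6 passage 1 cells (0 to 12.5) and of 6.94 in the 35 passage 2 cells (0 to 35.2), with a read in 3 of 6 and 33 of 35. The difference was 1.42, against -2.06 in all cells, and 2.38 without passage 1 cell 17. Rad50 had means of 11 and 46.8 (1.99), or 1.28 without passage 2 cell 43, where it stood at 684, and 2.88 without passage 1 cell 11. Of all passage 1 cells at 10, 13 of 14 for Rad51ap1 and 9 of 11 for Rad50 were marked cells, against 16 of all 22. Other members had lower shares, such as 10 of 15 for Rad54l and 3 of 5 for Palb2.

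Several differences among unmarked cells turned with 1 cell. Rad54b went from -4.21 to 1.09 without passage 1 cell 17, Xrcc3 from -4.63 to 0.44 without cell 5, Fancm from -2.01 to 2.18 without cell 7, and Chek2 from -2.27 to 0.71 without cell 3. Brca1, at 21.4 in passage 1 cell 17 and at 0 in the other 5, went from -2.07 to 0.12. Brca2, Fancb, Esco2 and Ddias, all far lower at passage 2 in all cells, were at 10 in none of the 6 unmarked passage 1 cells, where their highest values were 1.47, 2.21, 0.639 and 1.28. At that depth no difference between the passages was detectable for Brca2, Fancb and Esco2 in unmarked cells.

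Within passage 1 some members were high in the same cells. Over 22 cells the Spearman correlation was 0.77 for Esco2 with Clspn, for Rad51ap1 with Esco2, for Brca1 with Clspn and for Brca1 with Brip1. Among the 24 members at 10 in at least 8 passage 1 cells there were 276 pairs, with a median correlation of 0.19, 40 pairs above 0.5 and none below -0.5. The cells of a pair share library, depth and marks, so these figures describe the libraries and carry no test. The matching figures over pairs of other genes were not computed, so they are not a trait of the members.

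Related lists of genes, none of them members, were set beside the members in the same way. Of 39 other recombination genes, 13 were lower by at least 2-fold and 2 higher, with a median of -0.62. Mcm8, a helicase used in recombination, was the lowest of these (20.9 to 0.516, -3.85), Mus81 the highest (12 to 29.4, 1.22), and Sfr1, a recombination cofactor, had the highest level (252 to 141, -0.84). Of 17 other Fanconi genes, 3 were lower and 3 higher, with a median of 0.10. Ube2t, the ubiquitin-conjugating enzyme of Fancl, had means of 17.5 and 0.051 (-4.14), and Usp1, which removes that ubiquitin, had 73.4 and 17.7 (-1.99). Faap24 was the highest of this list, with means of 3.27 and 14.2 (1.83), and a single cell gave 58.6% of its passage 2 sum.

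Of 19 other checkpoint genes, 9 were lower and none higher, with a median of -0.91. Timeless and Tipin, which together protect the replication fork, differed by -3.74 and -2.51. Trp53bp1 was the highest of this list, with means of 55.6 and 85.3 (0.61). Of 17 other cohesin genes, 8 were lower and none higher, with a median of -0.74. Sgo1, which guards centromeric cohesion, had means of 91.4 and 3.82 (-4.26), and Wapl, which releases cohesin, had 197 and 264 (0.42). Among the other repair routes, 6 of 15 end-joining genes and 3 of 7 mismatch repair genes were lower by at least 2-fold, and none was higher. Of 17 base excision genes 3 were lower and 3 higher, and of 12 nucleotide excision genes 3 were lower and 2 higher. The medians of these routes were -0.51, -0.89, -0.31 and -0.70, in that order. Of all 20000 genes with a read, 14% were lower and 12.6% higher by at least 2-fold. The members' median was -1.50 in all cells. Without the marked cells the members' median of -0.53 stood beside -1.04 for the other cohesin genes, -0.69 for nucleotide excision and -0.54 for mismatch repair. The remaining lists lay higher: other recombination -0.14, other Fanconi 0.07, other checkpoint 0, end joining 0.82 and base excision 0.93. The lists were not tested against each other, and lists and members were chosen with earlier results of these data known.

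The members were split by the E2F letters in their promoters, as a description with no test. Of the 7 members with TTCCCGC, 6 were lower by at least 2-fold, with a median of -2.36. Of the 21 without it, 16 were, with a median of -1.50, and of the 16 that are left without the windows inside a gene, 14 were, with a median of -1.98. The lowest ratio, that of Fignl1, belonged to a promoter with the motif, and Clspn and Fanca, at -4.52 and -4.53, to promoters without it.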

How the data were processed

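RNA was sequenced from 67 single cells. Per the submitters' processing notes, the tools were HTSeq, SAMtools, BWA and DESeq, without versions, and the genome was GRCm38; the handling of strand and of multi-mapping reads is not given in the sources used here. The deposited signal values are counts per gene over a size factor of each cell. Dividing each column by its smallest step gave reads, whole to within 0.001 for 100% of the 509576 values above 0. No count test was run on these reads, because each passage is 1 sample. Of the values above 0, 26.7% were 1 to 3 reads.

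Symbols came from GENCODE M21 (37607 of 39179 rows). Ratios compared log2(mean + 1) and shares used counts of 10 or more with exact Clopper-Pearson 95% intervals. PCR reads without molecular identifiers are not independent molecules, so intervals and floors cover counting error only. The members, lists, role groups and markers were chosen with earlier results of these data known. Named genes were all members and, of each other list, those with the highest mean and the highest and lowest ratio. Alternatives were pseudocounts of 0.1 and 10, counts per total reads, TMM scaling (edgeR 4.0.16, R 4.3.3), medians, means of log2 values, thinning to 500000 reads, cells matched on reads, the filter, and cells left out. No doublet caller was run. The ratio was tested on simulated data. Python 3.11.15, pandas 2.3.3, numpy 2.4.6, scipy 1.17.1 and matplotlib 3.10.9 were used.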

Additional observations from a re-analysis of the deposited data

How the results depend on the processing

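The 28 lower members became 18 with a pseudocount of 10 and lay between 20 and 33 under the other settings; the median stayed between -2.22 and -0.92. The share of all kept genes lower by 2-fold moved too: 19.4% in the means, 12.2% with a pseudocount of 10, 39.8% with medians over cells (20 of 39 members), 35.1% when log2 values were averaged (28) and 29.8% in matched cells (33). Members higher by 2-fold numbered 1 with medians over cells and 3 with 12 cells per passage matched on reads. Leaving out each cell gave 26 to 29 lower members, 0 to 1 higher ones (1 without passage 1 cell 3), a median of -1.83 to -1.39, and 9 to 11 fewer members at 10 in the median passage 2 cell (differences of -11 to -9). Without marked cells a pseudocount of 10 left 8 lower and 1 higher, medians over cells gave 3 higher and a median of 0, means of log2 values 1 higher, and the filter a median of -0.90; leaving out each cell gave 14 to 17 lower, 4 to 8 higher (8 without passage 1 cell 3) and a median of -0.75 to -0.33. Fancc turned to 1.32 with medians over cells and to 0.15 when log2 values were averaged. In unmarked cells medians turned Brip1 to 0.21, Fanci to -1.79 and Fancl to -0.71, means of log2 values turned Fanci to -0.52, and removing the 25% of cells with fewest genes turned Xrcc3 to 0.50; the cause was not tested. These summaries put the median of all kept genes at -0.60 and -0.62, against -0.11 in the means. The removal of the 3 cells with fewest genes was chosen after seeing the data. Leaving out every cell with any read of Mki67 or Top2a was not run, since no passage 1 cell would remain. No paired analysis was possible because cell numbers only follow the order of deposit and no result comes from a test. Depth limits genes of a few reads, such as Xrcc2 and Fancg.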
